A study of Mus musculus with 6 samples.

Results

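The regions described here are windows of the mouse genome that lie more than 2 kb and at most 50 kb upstream of the nearest start of a coding transcript and whose DNA methylation differed between groups of bone marrow cells. They were taken from 3 deposited tables of differentially methylated windows by position alone: a window was kept where its nearest transcript was a RefSeq NM_ transcript and it lay upstream of the start by these distances. This gave 396 windows of the 2135 windows listed in any table (18.5%), near 243 genes. The signed distance to the start site, negative upstream, had a median of -15057.5 bp, with quartiles at -27711.8 and -8250.2 bp.

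Methylation was measured by reduced representation bisulfite sequencing (RRBS), which reads cytosines in MspI fragments and so covers CpG-rich DNA most densely. All 6 libraries were made from GFP-positive cells sorted from bone marrow of mice that had received C57BL6 marrow cells immortalised with HoxA9, a homeobox factor that keeps myeloid progenitors self-renewing. In 2 libraries (IDH1wt) the cells carried pSF91-IDH1wt-IRES-EGFP, in 2 (IDH1mut) pSF91-IDH1mut-IRES-GFP with the R132C substitution named in the title of the comparison, and in 2 (R-2HG, titled CTL R-2HG in the labels) an empty vector, in recipients that received R-2HG for 4 weeks (1 mg per day). The IDH1wt and IDH1mut cells were collected 4 weeks after transplantation into irradiated mice. The transgenes add IDH1 from a retroviral vector to cells that also carry HoxA9. R-2HG cells and IDH1wt cells differ in the vector as well as in exposure to R-2HG, and these cannot be told apart in their comparison. The same holds for R-2HG against IDH1mut. The labels do not give the age of the mice, nor whether both libraries of each group came from separate animals.

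DNA upstream of a gene holds enhancers as well as inert sequence, and an enhancer can act on its gene from many kilobases away. Methyl groups at CpG sites are added by DNMT enzymes and removed through oxidation by TET enzymes, and active enhancers tend to be methylated less than their surroundings. Wild-type IDH1 makes 2-oxoglutarate, the cosubstrate of TET enzymes. The mutant enzyme turns 2-oxoglutarate into R-2-hydroxyglutarate, R-2HG, a competitor for the same binding site. The nearest start site names a window, but the gene that an upstream region controls can be another one.

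The sequences of the windows are not printed, because no genome of their build, mm9, was used here. To show the CpG content at the genes on which the results below turn, the RefSeq promoters of 4 of them follow, from 250 bases before to 50 after the start site, 5′ to 3′ on the gene's strand in build GRCm38.p6, with every CpG in capitals. They are Dll4 (chr2:119325534-119325833, plus strand), Hoxa2 (chr6:52164782-52165081, minus strand), Prdm16 (chr4:154636824-154637123, minus strand) and Vmn1r14 (chr6:57233189-57233488, plus strand). The windows listed for these genes lie outside the stretches shown.
Dll4: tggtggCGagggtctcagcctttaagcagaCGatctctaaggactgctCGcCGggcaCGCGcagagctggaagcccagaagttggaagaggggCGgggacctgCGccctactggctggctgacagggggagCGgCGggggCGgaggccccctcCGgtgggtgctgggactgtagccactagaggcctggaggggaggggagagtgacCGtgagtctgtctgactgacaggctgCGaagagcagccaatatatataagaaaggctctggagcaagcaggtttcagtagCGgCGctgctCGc
Hoxa2: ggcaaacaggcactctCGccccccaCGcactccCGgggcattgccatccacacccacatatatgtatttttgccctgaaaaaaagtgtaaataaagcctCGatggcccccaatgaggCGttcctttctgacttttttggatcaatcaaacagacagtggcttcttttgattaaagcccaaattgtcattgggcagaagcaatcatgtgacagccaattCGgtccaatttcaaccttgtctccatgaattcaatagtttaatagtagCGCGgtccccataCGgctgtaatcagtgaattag
Prdm16: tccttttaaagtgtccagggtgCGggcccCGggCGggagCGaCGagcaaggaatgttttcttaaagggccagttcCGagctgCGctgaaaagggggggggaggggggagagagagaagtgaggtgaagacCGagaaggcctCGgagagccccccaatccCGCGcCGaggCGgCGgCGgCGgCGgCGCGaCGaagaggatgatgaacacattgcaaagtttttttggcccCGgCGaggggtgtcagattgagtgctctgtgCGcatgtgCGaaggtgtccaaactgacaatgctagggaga
Vmn1r14: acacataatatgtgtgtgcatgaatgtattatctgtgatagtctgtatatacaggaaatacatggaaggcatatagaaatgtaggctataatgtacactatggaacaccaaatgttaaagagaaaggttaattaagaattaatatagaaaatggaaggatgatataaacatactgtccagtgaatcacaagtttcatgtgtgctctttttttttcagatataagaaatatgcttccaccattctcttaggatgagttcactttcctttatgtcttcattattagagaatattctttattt
The Dll4 promoter held 17 CpGs, that of Hoxa2 9 and that of Prdm16 24, while the promoter of the pheromone receptor gene Vmn1r14 held 0. The MspI site CCGG, read as a palindrome on both strands and containing a CpG itself, occurred 2 times at Dll4, 1 time at Hoxa2, 2 times at Prdm16 and 0 times at Vmn1r14. Among all 32851 RefSeq promoters, 94.6% held a CpG and 52.8% a CCGG. A promoter was found for 190 of the 243 genes (78.2%), fewer than the 80% set as a minimum, so a comparison of promoter CpG content over the genes would be void and none is given.

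All differences are the authors' values in percentage points between 2 groups of libraries. IDH1wt is subtracted from IDH1mut and from R-2HG, and IDH1mut is subtracted from R-2HG; a positive value is called a gain. The table of R-2HG with IDH1wt runs opposite to the others: with its sign turned, the residual at the 3 windows found in every table was 0 and 0 of 705 windows found in exactly 2 tables left a remaining difference of 25 points or more. Which way round the whole set runs is not given by the values, and if it is reversed, gains and losses swap throughout. The tables hold only windows past a threshold: every upstream window differed by more than 25 points, and the largest q was 0.00693, 0.00995 and 0.00442, per the authors' deposited tables of IDH1mut with IDH1wt, R-2HG with IDH1wt and R-2HG with IDH1mut. The p-value was 0 as deposited for 69.7%, 67.7% and 83.8% of the upstream windows. No value per library stands in the tables, so no replicate error, no mean with an SD and no test between groups can be given. Read depth is unknown, and so is the coverage of each window. Windows not listed may have changed by less, or been covered too thinly.

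Against IDH1wt, listed upstream windows were more often gains than losses of methylation, in IDH1mut and, by a smaller margin, in R-2HG cells. Of the 396 windows, 244 (61.6%) were listed for IDH1mut against IDH1wt, beside 69.9% of all 2135 windows. They comprised 163 gains and 81 losses near 154 genes, a share of gains of 66.8% beside 69.3% over all windows of that table. For R-2HG against IDH1wt 164 windows were listed (41.4%, beside 35.1% of all windows), with 98 gains and 66 losses near 100 genes, a share of gains of 59.8% beside 68.0%. For R-2HG against IDH1mut 111 were listed (28%, beside 28.2%), with 35 gains and 76 losses near 75 genes, 31.5% gains beside 35.5%. The shares of gains lay near the background for both comparisons with IDH1mut and below it for R-2HG against IDH1wt. Neighbouring windows are not replicates, and no difference from the background was tested.

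The size of the differences was also near that of all listed windows. The median gain of upstream windows was 30.2 points for IDH1mut, 27.96 for R-2HG and 28.9 for R-2HG against IDH1mut, beside 30.6, 29.4 and 29.0 over all windows. The median loss was -28.7, -29.7 and -29.5 points, beside -28.9, -28.6 and -29.2. Differences of 40 points or more made up 11.1%, 9.76% and 10.8% of upstream windows and 14.1%, 10% and 9.62% of all windows. By cluster, where windows with at most 1000 bp between them are joined, the gains were 100 of 157, 60 of 102 and 24 of 76. Counted at a difference of 35 points or more, gains made up 78.9% of 57 windows for IDH1mut, 57.6% of 33 for R-2HG against IDH1wt and 22.2% of 27 for R-2HG against IDH1mut. At 30 points or more the share for R-2HG against IDH1wt was 53.0%. No share over all listed windows at these higher minimums is given. Whether the shifts are particular to upstream windows therefore cannot be told.

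**Figure D1:**
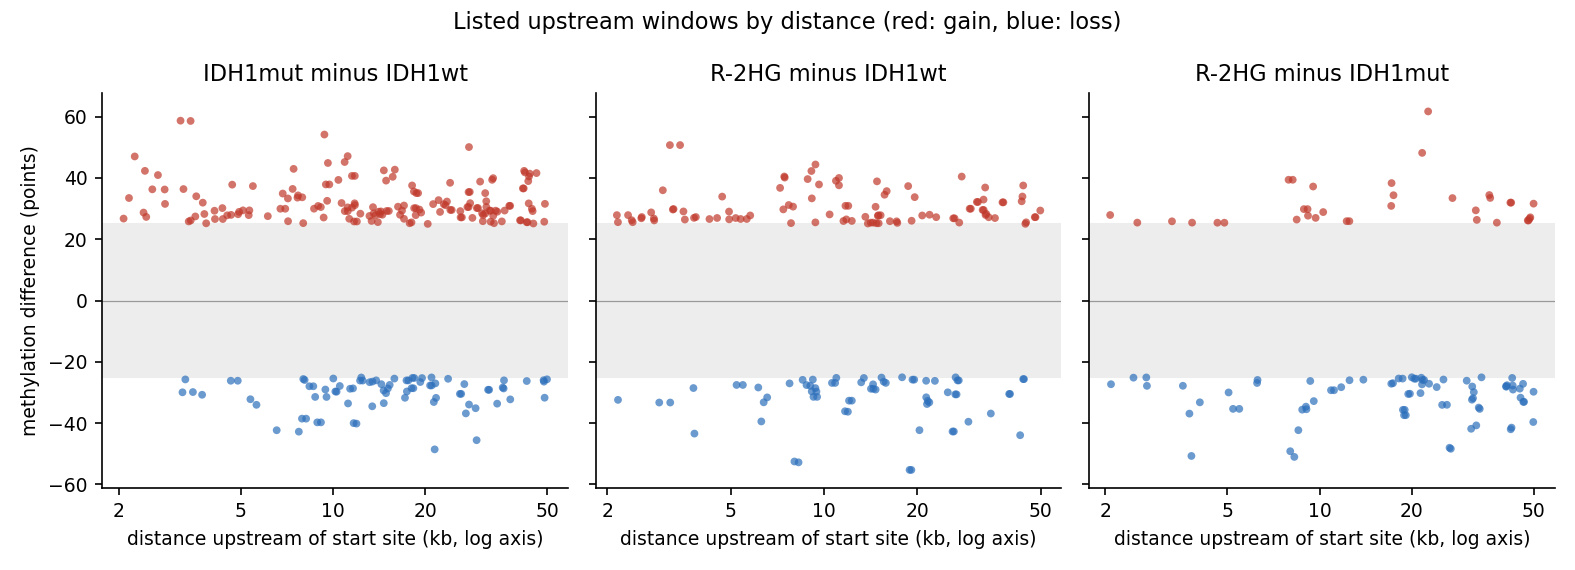
Methylation difference (points, y axis) of each listed upstream window against its distance from the start site (kb, log axis), in 3 panels, 1 per comparison. Red points are gains and blue points losses; the grey band from -25 to 25 points holds none because the tables list no such window. Gains outnumber losses in both comparisons with IDH1wt (163 to 81 and 98 to 66), and losses outnumber gains for R-2HG minus IDH1mut (76 to 35).

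Windows are 500 bp long and start 250 bp apart, so neighbours share their CpGs. Of 85 pairs of overlapping upstream windows listed for IDH1mut, 29 held the same difference, as did 23 of 61 pairs for R-2HG and 12 of 34 for R-2HG against IDH1mut, as given by the authors' deposited tables. Overlapping windows are therefore not separate measurements, although counts, medians and shares by window include each of them. Clusters are given beside windows for some of the counts and shares of gains only. No pair of overlapping windows and no cluster (0 of 157, 102 and 76) held differences of opposite sign. Single windows made up 81, 49 and 42 of the clusters, and the largest cluster held 4, 4 and 3 windows.

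Listed windows were densest close to the promoter. Over the 3 tables together, 20 windows per kb were listed at 2 to 5 kb, 14.2 at 5 to 10 kb, 11.4 at 10 to 20 kb and 5.03 at 20 to 50 kb. How many windows were covered at each distance is not given, so coverage and change cannot be told apart in this density. Gains were most frequent in the nearest bin against IDH1wt: 29 of 35 windows at 2 to 5 kb for IDH1mut (82.9%) and 24 of 29 for R-2HG (82.8%). In the bins beyond, gains made up 62.5%, 59.3% and 69.3% for IDH1mut and 48.6%, 57.1% and 56.9% for R-2HG. By cluster the nearest bin had 19 gains of 23 for IDH1mut and 12 of 16 for R-2HG. For R-2HG against IDH1mut the shares fell from 42.9% of 14 windows at 2 to 5 kb to 27.3% of 55 windows at 20 to 50 kb. The trend with distance was not tested.

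**Figure D2:**
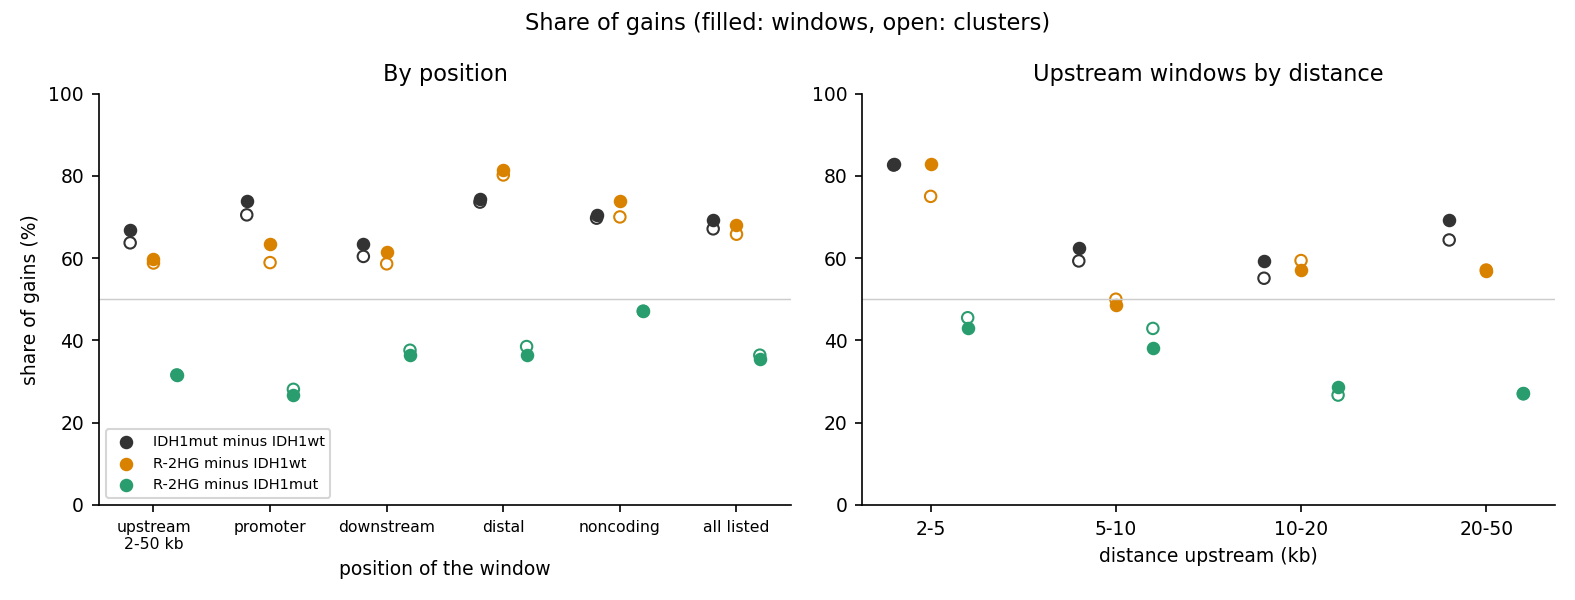
Share of gains (%, y axis) by position of the window (left) and by distance within the upstream windows (right, kb), for the 3 comparisons in 3 colours; filled points count windows and open points clusters. The share for upstream windows, 66.8%, 59.8% and 31.5%, lies below that of all listed windows, 69.3%, 68.0% and 35.5%, and the bin at 2 to 5 kb has the highest share of gains in each comparison.

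Counted by window, the upstream share of gains was below that of promoter windows (from -2000 to 500 bp) in both comparisons with IDH1wt. Promoter windows had 73.9% for IDH1mut and 63.3% for R-2HG. Beside windows further downstream, up to 50 kb, the upstream share was higher for IDH1mut (66.8% beside 63.5%) and lower for R-2HG (59.8% beside 61.5%). Windows more than 50 kb away had higher shares, 74.4% for IDH1mut and 81.4% for R-2HG. For R-2HG against IDH1mut the shares were 31.5% upstream, 26.8% in promoters, 36.4% downstream and 36.4% beyond 50 kb. By cluster, the R-2HG share was 58.8% upstream, 58.9% in promoters, 58.6% downstream and 80.2% beyond 50 kb. Upstream windows made up 16.3% of the windows listed for IDH1mut, 21.9% for R-2HG and 18.4% for R-2HG against IDH1mut. No test of these differences was made.

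At the near edge of the region the 3 closest windows were 1 near Dtx1 at -2074 bp, 1 near Grik3 at -2075 bp and 1 near Sdr42e1 at -2087 bp. Dtx1 had 27.9 points and Sdr42e1 -27.3 points for R-2HG minus IDH1mut, and Grik3 26.7 points for IDH1mut minus IDH1wt, according to the authors' deposited tables. Just outside, windows near Zfp90, Tbx1 and Mab21l1 at -1989, -1940 and -1932 bp had -25.5, -25.7 and -32.4 points for IDH1mut, per the authors' deposited table. At the far edge, windows near Plb1, Tyw3 and Fam189a1 lay at -49953, -49940 and -49838 bp. Plb1 had -25.7 points for IDH1mut, and Plb1, Tyw3 and Fam189a1 had 31.6, -29.8 and -39.6 points for R-2HG minus IDH1mut, per the authors' deposited tables. Just outside, Hnrnpa3 at -50066 bp had -29.3 points for IDH1mut, Grid1 at -50072 bp had 29.4 points for R-2HG and Tyw3 at -50190 bp again -29.8 points, as given by the authors' deposited tables. The stretches listed near Grik3, Sdr42e1, Plb1, Tyw3, Grid1 and Hnrnpa3 therefore run across a bound.

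Of the 396 windows, 273 were listed in 1 table, 123 in 2 tables and 0 in all 3. The windows of 1 table comprised 93 gains and 46 losses of IDH1mut, 41 gains and 34 losses of R-2HG against IDH1wt, and 14 gains and 45 losses of R-2HG against IDH1mut. The same counts over all windows listed in only 1 table are not given, so these have no background. Every pair of comparisons shares the libraries of a group, so a window in 2 tables is not independent evidence, and the differences are set side by side only. Both IDH1mut and R-2HG were listed against IDH1wt at 71 windows. At 34 windows IDH1mut was listed against IDH1wt and against R-2HG, and at 18 windows R-2HG was listed against IDH1wt and against IDH1mut. The remaining difference of these windows follows by subtraction. None of these windows stood in the third table, and the remaining difference was under 25 points at every one of them. Small subtracted values, equal signs of IDH1mut and R-2HG against IDH1wt, and opposite signs in the set of 34 therefore come with this selection. They are not findings, here or at the single genes below.

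Among the 71 windows, the 54 gains had medians of 30.9 points for IDH1mut and 29.6 for R-2HG, and the 17 losses -30.5 and -29.7 points. Among the 34 windows, IDH1mut had 16 gains with a median of 36.3 points, where R-2HG by subtraction lay from -4.96 to 14.4 points of IDH1wt. At its 18 losses, with a median of -29.7 points, R-2HG by subtraction lay from -9.91 to 6.59 points. Among the 18 windows, R-2HG had 15 losses with a median of -31.6 points and 3 gains from 25.8 to 27.2 points, where IDH1mut by subtraction lay from -17.9 to 23.0 points. By cluster, the losses and gains of R-2HG in the last set numbered 9 and 2, and the gains and losses of IDH1mut in the set before it 12 and 11. Over all windows of the same pairs of tables, R-2HG had 42 losses of 72 (58.3%) and IDH1mut 163 gains of 248 (65.7%), and for the windows with both listed against IDH1wt gains were 303 of 385 (78.7%). No difference from these shares was tested.

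**Figure D3:**
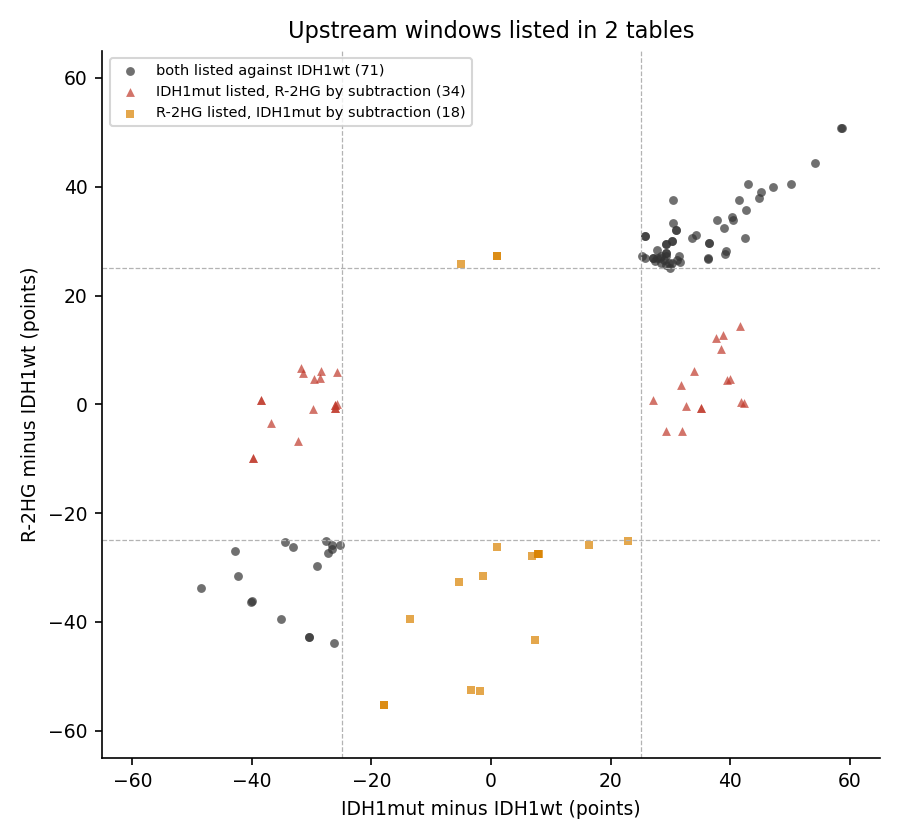
The 123 upstream windows listed in 2 tables, with IDH1mut minus IDH1wt (points) on the x axis and R-2HG minus IDH1wt (points) on the y axis. Black circles (71) have both values listed; red triangles (34) have the R-2HG value and orange squares (18) the IDH1mut value by subtraction; dashed lines mark 25 points. The 2 axes share the IDH1wt libraries, and windows listed in 1 table are not drawn.

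Of the 19 gene lists used, 11 had a member with a listed upstream window, 17 genes in all. For IDH1mut 14 of these genes were listed, 11 as gains and 3 as losses, beside 99 with a gain and 57 with a loss of all 154 genes. For R-2HG 7 were listed, 7 as gains and 0 as losses, beside 59 and 42 of 100 genes. For R-2HG against IDH1mut 4 were listed, 1 as a gain and 3 as losses, beside 24 and 51 of 75. The lists were chosen with earlier results of these data known, so these counts are description only. No list was tested, and several lists rest on a single gene.

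Of 76 homeobox genes and Polycomb targets of development, 4 had listed upstream windows, all of them Hox genes, which set position along the body axis and are also used in blood progenitors. Of these, Hoxa2 and Hoxb3 gained and Hoxc6 lost methylation. Hoxa2 gained 39.4, 31.8 and 30.4 points in 3 windows from -10422 to -11172 bp in IDH1mut, per the authors' deposited table. At the first and last of these windows R-2HG gained 28.1 and 37.6 points, per the authors' deposited table (chr6:52125251-52126500, mm9). Of the listed windows, the order differs between the groups: the window nearest to Hoxa2 was highest in IDH1mut and the farthest highest in R-2HG.

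Hoxb3 gained 31.5 points at -2833 bp in IDH1mut, as given by the authors' deposited table. R-2HG gained 26.1, 27.2 and 27.9 points in 3 windows from -2833 to -2333 bp, according to the authors' deposited table (chr11:96201751-96202750). The gain went on into the Hoxb3 promoter, where windows at -1583 and -1333 bp had 36.1 and 36.5 points in IDH1mut and 34.2 and 34.5 points in R-2HG, per the authors' deposited tables. Hoxc6 had losses of -30.7 and -29.9 points at -3743 and -3493 bp in IDH1mut, per the authors' deposited table (chr15:102835751-102836500). No window upstream of Hoxc6 was listed for R-2HG, although windows at its start site and beyond it were listed as losses in both comparisons, from -35.5 to -58.1 points, as given by the authors' deposited tables. None of Hoxa2, Hoxb3 and Hoxc6 had an upstream window listed between R-2HG and IDH1mut. Genes of a Hox cluster lie close together, so a window near 1 start site can belong to a neighbour.

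**Figure D4:**
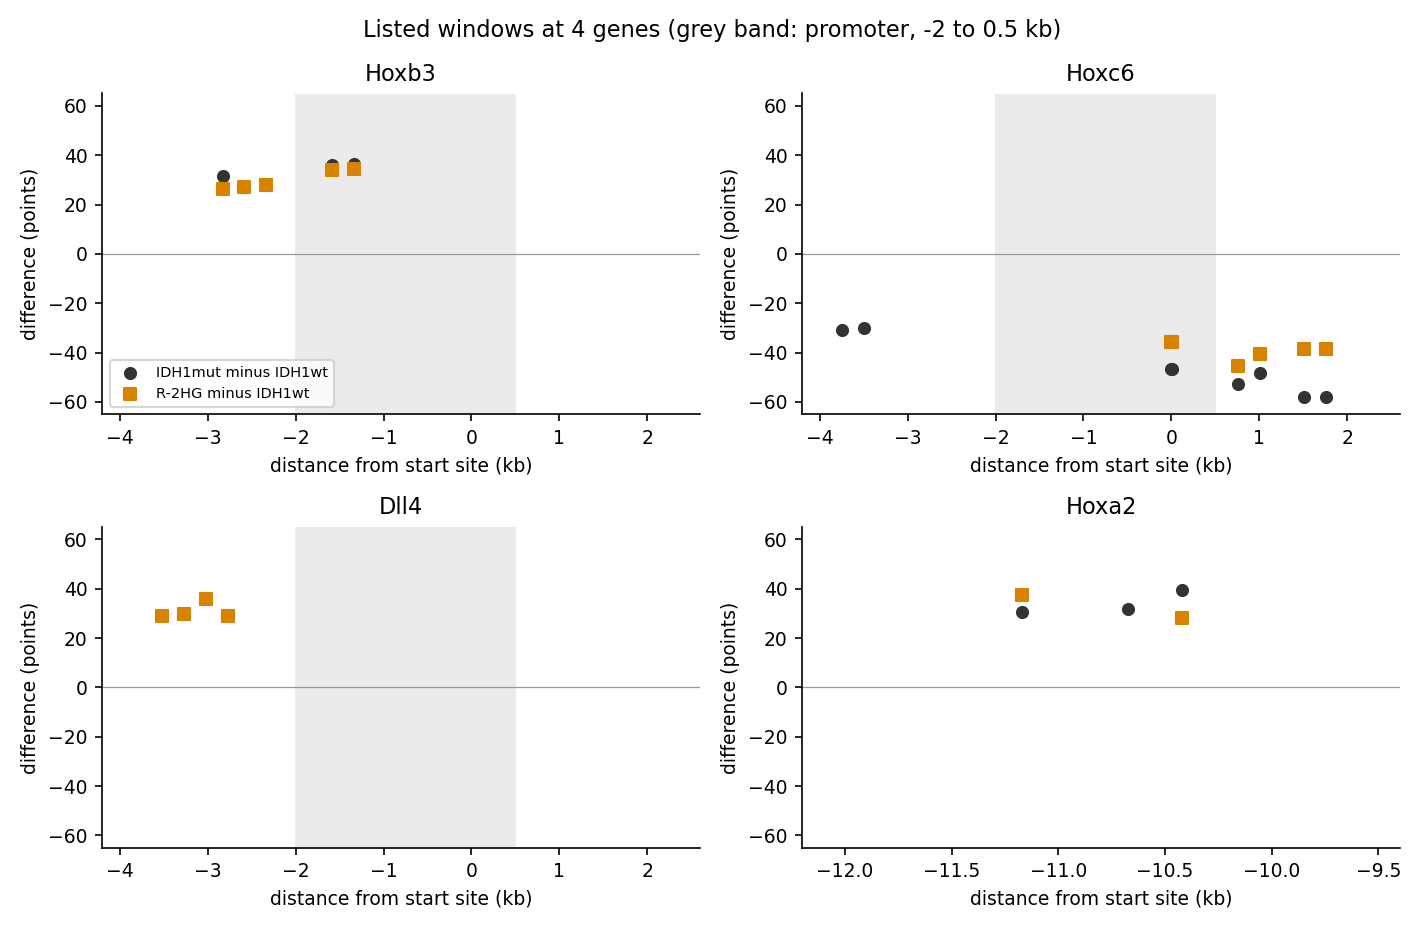
Methylation difference (points, y axis) of every window listed at Hoxb3, Hoxc6, Dll4 and Hoxa2 against its distance from the start site (kb, x axis); black circles are IDH1mut minus IDH1wt and orange squares R-2HG minus IDH1wt, and the grey band is the promoter. Hoxb3, Dll4 and Hoxa2 lie above 0 and Hoxc6 below 0; Dll4 has R-2HG windows only.

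Of 27 blood stem and progenitor regulators 2 were listed, both with gains in IDH1mut. Prdm16, a zinc finger regulator that maintains blood stem cells, gained 27.8 points at -4520 bp in IDH1mut and 26.9 points in the same window in R-2HG, with a further 26.6 points at -4270 bp in R-2HG, according to the authors' deposited tables (chr4:154015251-154016000). Gata2, a zinc finger transcription factor of blood stem cells, gained 41.6 points in IDH1mut at -46158 bp and was lower in R-2HG than in IDH1mut by a difference of -27.2 points, per the authors' deposited tables (chr6:88102001-88102500). By subtraction R-2HG lay 14.4 points above IDH1wt at the Gata2 window. Zfpm1, a cofactor of GATA factors and 1 of 21 erythroid and megakaryocyte genes, gained 31.7 points at -43541 bp in IDH1mut, per the authors' deposited table. The cardiac and gut factor Gata4, from the list of 31 genes often methylated in cancer, went the other way: IDH1mut had -36.8 points at -27155 bp and R-2HG was higher than IDH1mut by 33.4 points, as given by the authors' deposited tables. R-2HG lay -3.40 points from IDH1wt there by subtraction.

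Genes of 3 signalling lists had upstream windows with gains against IDH1wt, where 99 of 154 genes had a gain in IDH1mut and 59 of 100 in R-2HG. On the list of cytokines, chemokines and their receptors the only gene with an upstream window was Il21, which had a loss in IDH1mut. Osmr, a cytokine receptor gene that is not on that list, gained 32.9 points at -32689 bp in R-2HG, per the authors' deposited table. Osmr was named after its values were seen. Of the 33 genes of the Notch and Hedgehog pathways, Dll4, a membrane-bound Notch ligand, gained 29.1, 29.9, 36.0 and 28.8 points in 4 windows from -3520 to -2770 bp in R-2HG, according to the authors' deposited table (chr2:119147501-119148750). No Dll4 window was listed in the other comparisons, so the IDH1mut value there is not known beyond that. Gli2, a transcription factor of Hedgehog signalling, gained 31.1 and 32.3 points at -23306 and -23556 bp in IDH1mut, per the authors' deposited table. Of 43 genes of the TGF-beta and BMP pathway, Nog encodes noggin, which binds and blocks BMP ligands. A pair of Nog windows at -37629 and -37879 bp, equal in value, gained 30.9 points in IDH1mut and 32.0 points in R-2HG, per the authors' deposited tables (chr11:89201501-89202250). Smad5, which carries BMP signals to the nucleus, gained 38.4 points at -24121 bp in IDH1mut and had -28.2 points for R-2HG minus IDH1mut, as given by the authors' deposited tables. That leaves R-2HG 10.2 points above IDH1wt by subtraction. Dusp4, a phosphatase of MAP kinases and 1 of 29 genes of that list, gained 25.6 points in windows at -2414 and -2164 bp and 25.1 points at -1914 bp, just inside the promoter, in R-2HG, according to the authors' deposited table.

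Single genes of 4 further lists were found. Kdm6b, a 2-oxoglutarate-dependent demethylase of histone H3K27 and 1 of 37 such enzymes, gained 25.3 points at -7825 bp in R-2HG, per the authors' deposited table. Rnf2, a catalytic subunit of Polycomb complexes and 1 of 50 DNA methylation and chromatin regulators, gained 25.2 points at -17799 bp in IDH1mut, per the authors' deposited table. The q of this Rnf2 window was 0.00391, where 69.7% of the upstream windows of that table had a p of 0. Epha8, an ephrin receptor from the list of 85 axon guidance and adhesion genes, gained 31.7 points at -11771 bp in IDH1mut and had -28.3 points for R-2HG minus IDH1mut, as given by the authors' deposited tables, which puts R-2HG at 3.46 points from IDH1wt by subtraction. Il21, a T cell cytokine and 1 of 73 genes of cytokines, chemokines and their receptors, lost methylation at -13462 bp in IDH1mut, with -26.4 points, according to the authors' deposited table.

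The other 8 lists had 0 genes with a listed upstream window: the HoxA9 and Meis1 programme (20 genes), myeloid differentiation (37), lymphoid markers (28), stromal and endothelial markers (18), the Wnt pathway (58), cell cycle genes (24), imprinted genes (33) and IDH and 2-hydroxyglutarate metabolism (22). Of these, 5 genes of the HoxA9 and Meis1 programme, 7 Wnt genes, 3 lymphoid, 2 stromal, 3 imprinted and 1 cell cycle gene had listed windows at other positions. The myeloid and IDH metabolism lists had none at any position. Upstream windows were listed near 243 genes in all, beside 17492 coding genes with a RefSeq promoter, so a count of 0 in lists this short carries little weight. It was not tested against that background. The zeros also cover only the genes put on each list. Flt1, a VEGF receptor gene, and Racgap1, a gene of cell division, had upstream windows but stand on none of the lists. Of the marker lists for other blood and stromal cells, the 1 gene with an upstream window was Zfpm1; methylation near such genes does not measure how many of those cells a library held.

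The largest upstream gain in both comparisons with IDH1wt lay near Vmn1r14, followed by Nfatc4. Vmn1r14, a vomeronasal pheromone receptor gene, gained 58.6 and 58.7 points in IDH1mut and 50.7 points in R-2HG at -3433 and -3183 bp, per the authors' deposited tables (chr6:57179501-57180250). Olfr77, an odorant receptor gene, gained from 40.4 to 47.1 points in IDH1mut and from 34.5 to 40.0 points in R-2HG, in 4 windows that form 2 stretches, at -15923 to -15673 bp and -11173 to -10923 bp, per the authors' deposited tables. Of the 5 olfactory and vomeronasal receptor genes listed, Olfr222 also gained in IDH1mut, by 31.9 points, and was lower in R-2HG by a difference of -36.9 points, as given by the authors' deposited tables. Olfr49 and Olfr761 were listed only between R-2HG and IDH1mut, with -25.8 and up to -29.1 points, according to the authors' deposited tables. These families are made of many similar copies, so reads of near-identical copies may be shared. Whether they were was not tested.

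Nfatc4, a calcium-regulated transcription factor, gained 44.9, 54.2 and 30.5 points in IDH1mut and 37.9, 44.4 and 33.3 points in R-2HG in 3 overlapping windows from -9632 to -9132 bp, per the authors' deposited tables (chr14:56433501-56434500). Both groups peaked in the middle window. Padi6, a peptidylarginine deiminase gene of the egg, gained 43.0, 34.3 and 33.7 points in IDH1mut and 40.5, 31.2 and 30.6 points in R-2HG from -7444 to -7944 bp, per the authors' deposited tables. Riok2, a kinase of ribosome assembly, gained 50.1 points in IDH1mut and 40.5 points in R-2HG at -27796 bp, as given by the authors' deposited tables. The uncharacterised gene 2310057J18Rik gained up to 41.4 points in IDH1mut and 37.5 in R-2HG, in 3 windows from -43390 to -43890 bp, according to the authors' deposited tables. Brd7, a bromodomain gene, gained 42.5 and 39.1 points in IDH1mut and 30.6 and 27.6 points in R-2HG, per the authors' deposited tables.

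Further genes had gains listed in 1 comparison with IDH1wt. In IDH1mut, Gp1bb, a platelet glycoprotein gene, gained 47.0 points at -2256 bp, per the authors' deposited table. Pdxk, the pyridoxal kinase gene, gained between 27.98 and 31.0 points across 4 windows, from -16309 to -17059 bp in IDH1mut, as given by the authors' deposited table. Kctd1 gained 33.5 and 28.7 points close to the near bound, and Flt1, a VEGF receptor gene, 25.7 and 31.6 points close to the far bound, both in IDH1mut, according to the authors' deposited table. In R-2HG, the cytochrome P450 genes Cyp4f15 and Cyp4f14 gained 42.3 and 39.6 points and 36.8 and 40.1 points from -9104 to -7215 bp, per the authors' deposited table. They are members of 1 gene family on chromosome 17, for which the same caution on similar copies holds. The keratin gene Krt18 gained 26.2 and 27.9 points at -2397 and -2147 bp in R-2HG, per the authors' deposited table.

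The largest losses of IDH1mut were single windows or pairs. Klf17, a Krüppel-like factor of the early embryo, had -48.6 points in IDH1mut and -33.8 in R-2HG at -21481 bp, as given by the authors' deposited tables. Fabp6, an ileal bile acid-binding protein gene, had -45.6 points at -29438 bp in IDH1mut, according to the authors' deposited table. Catsper1, a sperm calcium channel gene, had -42.8 and -27.0 points, and the zinc finger gene Zfp629 -42.3 and -31.6 points, in IDH1mut and R-2HG, per the authors' deposited tables. Paics, an enzyme gene of purine synthesis, had -40.2 and -36.3 points at -11936 bp, per the authors' deposited tables. Tpp1, a lysosomal protease gene, had 4 losses in IDH1mut, from -25.4 to -31.5 points between -9531 and -10531 bp, as given by the authors' deposited table. Of the 5 listed Zfp genes, Zfp74 gained in IDH1mut and R-2HG (28.4 and 27.3 points), and Zfp236, Zfp369, Zfp629 and Zfp763 had losses against IDH1wt, according to the authors' deposited tables. For IDH1mut 3 of 4 listed Zfp genes had losses, beside 57 of all 154 genes, and for R-2HG 2 of 3, beside 42 of 100. These shares were not tested. The q was 0.00612 for Zfp369 in IDH1mut and 0.00455 and 0.00829 for Zfp236 in R-2HG, per the authors' deposited tables.

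In R-2HG the largest losses lay near B020004J07Rik and Fam171a2. B020004J07Rik had -55.3 points in a pair of equal windows at -18875 and -19125 bp, per the authors' deposited table, with a q of 1.48e-06, where 67.7% of the upstream windows of that table had a p of 0. Fam171a2 had -52.5 and -52.8 points at -8025 and -8275 bp with a q of 0, per the authors' deposited table. Both were also lower than in IDH1mut, with -37.4 points near B020004J07Rik and -49.2 and -51.0 points near Fam171a2, as given by the authors' deposited table. Rgma, a repulsive guidance molecule gene, had -43.9 points in R-2HG and -26.3 in IDH1mut, and Papl -42.7 and -30.5 points, according to the authors' deposited tables. The uncharacterised gene 1300002K09Rik had -43.4 points at -3819 bp, and Rnf149, a ubiquitin ligase gene, -42.3 points at -20310 bp, in R-2HG, per the authors' deposited table. Racgap1, a gene of cell division, had -32.4 points at -2165 bp, and -39.5 points at -1915 bp in its promoter, in R-2HG, per the authors' deposited table.

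Set directly against IDH1mut, R-2HG cells were lower at 76 of 111 upstream windows, beside 389 of 603 windows (64.5%) over the whole table. By cluster this was 52 of 76 beside 241 of 379, and by gene 51 of the 75 genes listed upstream. The largest such differences lay near Fam171a2, 1300002K09Rik (-50.7 points) and Treh, the trehalase gene (-48.4 and -48.0 points), as given by the authors' deposited table. At Treh, R-2HG was also listed against IDH1wt at -26566 bp, with -25.1 points, according to the authors' deposited table, which puts IDH1mut 23.0 points above IDH1wt by subtraction. Tex13 on the X chromosome had -42.3, -35.6 and -34.6 points in 3 windows from -8530 to -9030 bp, and -25.9, -27.6 and -27.8 points against IDH1wt, per the authors' deposited tables. Usp14, a ubiquitin protease gene, had -30.2 and -27.4 points, with -31.6 and -32.7 points against IDH1wt, per the authors' deposited tables. Gprasp2, also on the X chromosome, had -41.5 and -42.0 points where IDH1mut had gained 41.8 and 42.3 points, as given by the authors' deposited tables, so that R-2HG lay 0.336 and 0.305 points from IDH1wt by subtraction. Pard6b, a cell polarity gene, had -28.1 and -41.8 points, and Ust, a sulfotransferase gene, -34.0, -25.8 and -29.9 points, according to the authors' deposited table; neither was listed against IDH1wt. The q of the Ust window with -34.0 points was 0.00442, the largest q of the upstream windows in that table.

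The 6 genes with the largest differences in which R-2HG was higher than IDH1mut were Ppa1, Ociad2, Zfp763, Furin, Tpp1 and Epn2, in order of size. Ppa1, the inorganic pyrophosphatase gene, had 61.7 points at -22619 bp with a q of 7.36e-05, and Ociad2 48.2 points at -21624 bp with a q of 0, per the authors' deposited table. A window at -22369 bp overlaps that of Ppa1 and was not listed for R-2HG against IDH1mut. It had 28.9 points for IDH1mut minus IDH1wt, per the authors' deposited table. At Zfp763, Furin, Tpp1 and Epn2 the difference went with a loss in IDH1mut. Furin, a proprotein convertase gene, had -31.7 and -29.7 points in IDH1mut, and R-2HG was higher by 38.3 and 34.4 points, per the authors' deposited tables, which leaves R-2HG at 6.59 and 4.69 points from IDH1wt. Zfp763 had -38.5 points and 39.4 points in the same order, and Epn2, an endocytosis gene, -28.4 and 34.4 points at -35813 bp, as given by the authors' deposited tables. Srf, the serum response factor gene, had -39.7 points in IDH1mut and 29.8 points for R-2HG minus IDH1mut in a pair of equal windows at -8891 and -9141 bp, according to the authors' deposited tables. Ercc4, a DNA repair gene, was higher in R-2HG than in both other groups, with 27.2 points against IDH1wt and 26.1 against IDH1mut, per the authors' deposited tables.

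Most genes had few windows: 116 genes had 1 upstream window, 107 had 2, 14 had 3 and 6 had 4. The windows of 7 genes fell into 2 stretches, Celf2, Lyrm2, Olfr77, Pink1, Ppa1, Usp10 and Ust. Of these, 3 had opposite directions in 1 table. In IDH1mut, Usp10, a ubiquitin protease gene, had 28 and 28.2 points at -14502 and -14252 bp and -27.7 points in a pair of equal windows at -21002 and -20752 bp, per the authors' deposited table. Ppa1 had 28.9 and 32.8 points at -22369 and -22119 bp and -25.5 points at -15869 bp in IDH1mut, as given by the authors' deposited table. In R-2HG, Pink1, a mitochondrial kinase gene, had -28.6 points at -3791 bp and 26.0 points at -12291 bp, according to the authors' deposited table. The q of the lost Usp10 windows was 0.00693, the largest q of the upstream windows in that table.

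Few of the 243 genes were also listed at another position. A promoter window was listed for 10 genes, a window more than 500 bp and up to 50 kb downstream for 8 and a window beyond 50 kb for 14. Some of these promoter windows overlap an upstream window across the bound, as at Dusp4, Grik3, Racgap1 and Sdr42e1, and so share its CpGs. Within 1 table, the upstream and promoter windows of a gene had 1 sign in 7 of 8 cases, the overlapping ones included. For downstream windows this held in 1 of 2 cases. For windows beyond 50 kb it held in 11 of 13, among them stretches that run across the far bound. No test was made. Adamts5, a cartilage protease gene, had opposite directions at separate windows, with -27.97 points upstream and 27.95 points in the promoter in IDH1mut, per the authors' deposited table. Grik3, a glutamate receptor gene, gained 26.7 points at -2075 bp and 26.8 points at -1825 bp in IDH1mut, and had -27.7 points at 24678 bp downstream, per the authors' deposited table. Adamts5 was chosen after its values were seen.

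Upstream windows lay on every chromosome that had listed windows (from 6 windows on chromosome 19 to 34 on chromosome 4), with 16 on the X chromosome, 4.04% beside 3.33% of all windows. Of the genes they were nearest to, 188 windows belonged to the plus strand and 208 to the minus strand. The name families with listed upstream windows were small: 13 RIKEN clone genes, 5 Zfp and 5 receptor genes, 4 Hox, 2 GATA and 1 each of the T-box, Krüppel-like, solute carrier, Gpr and Tmem genes. Of 9 RIKEN clone genes listed for IDH1mut 9 were gains, beside 99 of 154 genes, and of 9 listed for R-2HG 7 were gains and 2 losses. No Sox, forkhead, BTB zinc finger, potassium channel, collagen or protocadherin gene had a listed upstream window, while 3, 2, 1, 6, 5 and 7 of these genes had listed windows at any position.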

How the data were processed

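The submitters' processing notes name Trim Galore, BSMAP, methylKit 0.9.1 and build mm9; the sources used here give no settings, coverage filter or test. Per the file headers, the authors deposited for each window a methylation difference (a signed score in percentage points), a p-value, a q-value, and the signed distance to the nearest transcript start. Distances run from the window's edge nearest to the start: the start sites so implied matched within 2 bp for 514 of 515 transcripts with several windows. Rows that repeated a window, numbering 64, 4 and 1, were counted once. Scripts used Python 3.11.15, pandas 2.3.3 and SciPy 1.17.1; sign order and joining of windows were tested on simulated data.

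The members, 19 lists and 16 name families were chosen with earlier results of these data known. Genes were named by rule: list members, the 8 genes with most windows, the 6 largest gains and losses, those nearest to the bounds, those with both directions, and the 10 with most windows in 2 tables; some are given by count only. No test was run, since no value per library was analysed here. Alternatives covered size, q, both bounds, transcripts, repeated rows, clusters, chromosomes and sign. Promoters came from RefSeq (GRCm38.p6), matched by accession, symbol or synonym, with the entry of most CpGs per gene in counts over genes. No mm9 annotation was used here, so exon, intron and UTR are not given. The values of 1 gene counted among the list members are not reported here.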

Additional observations from a re-analysis of the deposited data

How the results depend on the processing

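No paired analysis was possible because the deposited tables hold differences between groups and no value per library; for the same reason no replicate could be left out. Of 126 alternative values 104 stayed within the margin set for them (1.5 times for a count, the exact binomial 95% interval for a share, that of the median for a size), 19 moved and 3 reversed. The intervals treat windows as independent, which overlapping windows are not. They serve as a fixed margin only and measure no spread between replicates. Values are in the order IDH1mut and then R-2HG, each against IDH1wt, and last R-2HG against IDH1mut. A minimum of 30 points left 114, 66 and 49 windows with median sizes of 35, 35.1 and 35.4 points, and a minimum of 35 points left 57, 33 and 27 with 39.7, 40.0 and 39.4 points, which follows from the higher minimum. The share of gains moved to 73.7% (30 points) and 78.9% (35 points) for IDH1mut and to 22.2% (35 points) for R-2HG against IDH1mut. The shares over all listed windows at these minimums are not given. A far bound of 20 kb left 156 windows for IDH1mut and 56 for R-2HG against IDH1mut, and 1 window per cluster left 157 for IDH1mut and 102 for R-2HG against IDH1wt. With the opposite sign for all tables the shares of gains became 33.2%, 40.2% and 68.5%. The share by cluster stayed within its margin when windows were joined within 250 or 5000 bp. Counting equal neighbouring windows once was added after seeing the data. Depth is unknown, so no limit of detection can be given.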

Other observations

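A further group of genes near upstream windows, 15 regulators of development outside the lists, was picked by eye after the values were seen and supports nothing by its count. Against IDH1wt, IDH1mut had gains near 5 of them and losses near 2, and R-2HG gains near 5 and losses near 3. Dmbx1 and Hopx, both homeobox genes, gained 29.3 and 27.1 points in IDH1mut and 29.6 and 26.8 points in R-2HG, per the authors' deposited tables. The T-box gene Tbx3 had -26.6 and -26.7 points, per the authors' deposited tables. Neurog3, Npas1 and Bsx gained 29.4, 26.6 and 27.3 points in IDH1mut, at -5338, -4123 and -2460 bp, and Noto lost methylation there with -28.8 points, per the authors' deposited table. Barhl1 and Prdm8 gained 25.4 and 25.4 points in R-2HG, and Dlx4 and Hand1 had -25.6 and -25.05 points, per the authors' deposited table. Pou3f1 was higher in R-2HG than in IDH1wt by 25.8 points and than in IDH1mut by 30.9 points, per the authors' deposited tables. Rfx4, Tead1 and Utf1 were listed between R-2HG and IDH1mut, with 25.4, -27.1 and -26.9 points, per the authors' deposited table.

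Pik3r1, a regulatory subunit gene of PI3 kinase, also named after its values were seen, gained 39.4 and 39.9 points at -33080 and -33330 bp in IDH1mut and had -34.9 and -35.4 points for R-2HG minus IDH1mut, per the authors' deposited tables. With Dll4, a pair of other genes tied to Notch signalling had upstream windows: Dtx1, higher in R-2HG than in IDH1mut by 27.9 points, and Nrarp, with -26.0 points, per the authors' deposited table.

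The 61.7 points near Ppa1 were the only upstream difference above 50 points that stood in 1 table. If IDH1wt was covered there, the 3 differences must add up and at least 1 of the other 2 exceeds 25 points without being listed. Coverage of that window is not given.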
